A study of Mus musculus with 12 samples.

Results

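A set of 7 genes of cholesterol metabolism were followed through donor T cells that infiltrate the liver after allogeneic hematopoietic cell transplantation (HCT). The 7 members, Hmgcs1, Idi1, Fdps, Fdft1, Sqle, Cyp51, and Insig1, were taken by name from the deposited count table, which lists 25078 genes in all. All 7 were found there and all 7 passed the filter on low counts. Of these, 6 are enzymes of cholesterol synthesis and Insig1 is a regulator of that synthesis. None of them codes for a protein of cholesterol uptake, so that uptake was read from a wider list described further down. The members were proposed with earlier results of these data in view.

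T cells came from C57BL/6 donors of 3 genotypes. WT donors carried no deletion, STAT3ko donors lacked STAT3 in T cells through a floxed Stat3 gene and Cre under the CD4 promoter, which acts in CD4+ and CD8+ T cells alike, and STAT3ko PD-1ko donors carried in addition a germline deletion of PD-1. All recipients were lethally irradiated WT BALB/c mice that also received T cell-depleted WT bone marrow, so irradiation and an MHC mismatch were shared by every group. The severity of graft-versus-host disease (GVHD) was not shared. The study reports lethal acute GVHD from WT and STAT3ko PD-1ko donor T cells, and mild, reversible disease from STAT3ko T cells. Effects of donor genotype within the T cell and of the diseased host tissue therefore cannot be told apart here. Donor CD4+ and CD8+ T cells were sorted from the liver on day 6 after HCT, which gave 6 groups of 2 libraries and 12 libraries in all. Lymphocytes of 3 recipients went into each library, and the spread given below is therefore one between pools of mice. The libraries held 21676125 to 24551477 counts on genes. No library of T cells from untransplanted mice was analysed here, so that every comparison is between donor genotypes or T cell subsets after HCT.

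Cholesterol is built in the cytosol and the endoplasmic reticulum from acetyl-CoA. HMG-CoA synthase (Hmgcs1) stands early in the mevalonate arm, isopentenyl diphosphate isomerase (Idi1) and farnesyl diphosphate synthase (Fdps) complete it, and the sterol arm then runs through squalene synthase (Fdft1), squalene epoxidase (Sqle), and lanosterol demethylase (Cyp51). The transcription factor SREBP2 (Srebf2) drives these genes when sterols are scarce, and INSIG1, itself a target of SREBP, keeps the SREBP escort protein SCAP in the endoplasmic reticulum when sterols are plentiful. T cells that are activated and divide are known to switch this program on to supply membrane.

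Promoter sequences bear on genes that are known to share a regulator, and RefSeq windows for mouse build GRCm38.p6, each covering 250 bases before to 50 bases after the transcription start, matched 4 of the 7 genes, namely Hmgcs1, Idi1, Cyp51, and Insig1. The last 150 bases before the start are printed below, 5′ to 3′ on the strand of the gene. Capitals mark exact matches on either strand to CACNCCAC, the core of the sterol regulatory element that SREBP binds, or to CCAAT, the box bound by NF-Y. The stretches lie at chr13:119690201-119690350 on the plus strand (Hmgcs1), chr13:8885456-8885605 on the plus strand (Idi1), chr5:4104698-4104847 on the minus strand (Cyp51), and chr5:28071262-28071411 on the plus strand (Insig1).
Hmgcs1: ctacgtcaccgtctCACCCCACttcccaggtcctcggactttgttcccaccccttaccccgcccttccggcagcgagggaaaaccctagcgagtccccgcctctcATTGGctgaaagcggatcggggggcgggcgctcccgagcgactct
Idi1: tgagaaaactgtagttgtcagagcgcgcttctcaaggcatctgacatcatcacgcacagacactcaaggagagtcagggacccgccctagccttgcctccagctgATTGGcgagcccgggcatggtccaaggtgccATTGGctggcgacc
Cyp51: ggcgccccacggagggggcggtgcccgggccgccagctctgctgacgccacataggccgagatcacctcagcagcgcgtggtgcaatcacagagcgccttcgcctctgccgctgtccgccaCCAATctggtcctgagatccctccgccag
Insig1: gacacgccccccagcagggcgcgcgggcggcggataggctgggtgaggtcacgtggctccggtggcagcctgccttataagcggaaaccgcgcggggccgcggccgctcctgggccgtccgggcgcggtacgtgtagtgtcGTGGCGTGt

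In the Hmgcs1 window the sterol regulatory element core began 136 bases before the start, as CACCCCAC on the strand of the gene. The match in Insig1 lay on the other strand and began 9 bases before the start. This core was found in 2 of the 4 windows and in 6.24% of all 32851 RefSeq windows of the same length. Among the 16 enzymes of cholesterol synthesis with a window, members included, it was found in only 2, while a CCAAT match was found in 15. A CCAAT match was present in 4 of 4 windows, against 37.4% of all windows, and a GC box (GGGCGG, the site of SP1) in 4 of 4, against 35.7%. The E-box CACGTG was found only in the Insig1 window among these 4 and in 7.15% of all windows. The palindrome TTCNNNGAA, to which STAT proteins bind, was in 0 of the 4 and in 8.3% of all windows. These motifs were searched on both strands, matches may overlap each other, and a match is a string of letters and not a bound site.

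The 7 genes were first ordered by level. Per kilobase of exon, with counts expressed as CPM of the TMM-normalized library (normalized CPM per kb), the mean over the 12 libraries was 26.1 for Hmgcs1, 22.8 for Insig1, 17.7 for Cyp51, 15.9 for Sqle, 8.85 for Fdft1, 6.39 for Fdps, and 0.388 for Idi1. Only the steps from Sqle to Fdft1 and from Fdps to Idi1 separated all 12 libraries in every pairing of values. Sqle exceeded Fdft1 in 12 of 12 libraries, and Fdps exceeded Idi1 in 12 of 12. Each of the other 4 neighbouring pairs had overlapping ranges, with the gene of the higher mean ahead in 8 to 11 of the 12 libraries. Idi1 was the least abundant, with 13 to 38 counts per library, and the other 6 genes had from 150 (Fdps) to 2576 counts (Hmgcs1). Across the 12 libraries the highest level was 3.91 times the lowest for Insig1 and 1.35 times the lowest for Fdft1, the widest and the narrowest range among the 7.

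The location of each gene and the sequence it shares with others set how far its counts can be read. Sqle occupies bases 59315092 to 59331193 on the plus strand of chromosome 15 of mm10, and no other transcript of the GENCODE vM21 annotation matched its transcript over 51 bases, the length of a read, or more at 96% identity. Fdps, between bases 89093588 and 89101967 of chromosome 3 (minus strand), is at the other end of the scale. Of its transcript, 91.4% was matched in this way by transcripts of 6 other genes, among them Gm3571 and Gm8163, so that the counts of Fdps depend on how reads with several matches were treated. The share was 54.7% for Fdft1, which overlaps Ctsb on the opposite strand, 35.3% for Idi1, 16.2% for Hmgcs1, 7.01% for Insig1, and 4.22% for Cyp51. The library kit named in the supplemental methods keeps the strand of the RNA, but whether the counting used it is not given in the sources used here. Hmgcs1, Fdft1, Idi1, and Cyp51 each have an overlapping antisense partner in GENCODE, and without use of strand the reads of the partner would be counted with theirs or left out as ambiguous.

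The deleted genes and the sorted subsets were checked in the same libraries. Stat3 had 368.6 and 467.0 normalized CPM in the WT CD4+ libraries, 139.9 and 164.0 in STAT3ko, and 156.8 and 219.0 in STAT3ko PD-1ko. In CD8+ libraries Stat3 had 397.1 and 384.3 (WT), 148.8 and 135.5 (STAT3ko), and 153.7 and 235.0 normalized CPM (STAT3ko PD-1ko). Within a subset, the STAT3-deficient libraries were thus all lower than the WT libraries. PD-1 is encoded by Pdcd1, which had 235.2 to 454.4 normalized CPM in the 8 WT and STAT3ko libraries and 26.0 to 93.6 in the 4 STAT3ko PD-1ko libraries. Cd4 averaged 1282 to 1862 normalized CPM in the CD4+ groups and at most 1.63 in the CD8+ groups, and Cd8a averaged 592 to 1265 in the CD8+ groups and at most 3.38 in the CD4+ groups.

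Loss of STAT3 alone was followed by no change of a member that passed the test. Genotypes were compared by the quasi-likelihood test of edgeR on the 6 libraries of each subset, as a log2 fold change with its standard error (SE) and a p-value adjusted by Benjamini-Hochberg over all genes tested, and a gene was called at an adjusted p under 0.05. As compared with WT, 0 of 7 members were called in STAT3ko CD4+ T cells and 0 of 7 in CD8+ T cells, where 0.334% and 0.0583% of all genes tested were called. No member had an unadjusted p under 0.05 in either subset, beside 1259 of 11959 genes in CD4+ and 1315 of 12002 in CD8+ T cells. DESeq2, which called 2.27% and 1.82% of all genes, called 0 of 7 in both. In CD4+ T cells 6 of the 7 fold changes lay below 0 and their median was -0.22, beside a median of 0.011 over all genes. In CD8+ T cells 5 of 7 lay above 0, with a median of 0.052 beside -0.0062 over all genes. This comparison calls few genes of any kind. Stat3 itself, at a log2 fold change of -1.46 (SE 0.22) in CD4+ and -1.46 (SE 0.20) in CD8+ T cells, had an adjusted p of 0.0550 and 0.108 and was not called in either.

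Within the mevalonate arm, Hmgcs1 differed between STAT3ko and WT by -0.21 (SE 0.24) on the log2 scale in CD4+ T cells and by 0.047 (SE 0.22) in CD8+ T cells. Fdps differed by -0.25 (SE 0.22) and 0.079 (SE 0.17), and Idi1 by 0.13 (SE 0.45) and 0.052 (SE 0.42). In the sterol arm, Fdft1 differed by -0.030 (SE 0.19) and 0.22 (SE 0.13), Sqle by -0.22 (SE 0.15) and 0.13 (SE 0.16), and Cyp51 by -0.40 (SE 0.27) and -0.16 (SE 0.21), in the same order. The largest differences were those of Insig1, at -0.41 (SE 0.53) in CD4+ and -0.40 (SE 0.48) in CD8+ T cells, and its 95% confidence intervals, -1.65 to 0.83 and -1.54 to 0.74, also span the widest range of changes that these pools leave possible. The libraries of the compared groups did not overlap for 2 members, Fdps (by a margin that rounding hides) and Sqle, which were lower in STAT3ko CD4+ T cells, and for Fdft1, which was higher in STAT3ko CD8+ T cells. Such a separation was found for 19.4% of all genes tested in the first case and 22.5% in the second.

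Removal of PD-1 on the STAT3-deficient background changed the picture for squalene epoxidase. Sqle, which introduces the oxygen of the later sterol ring and is among the rate-limiting steps of the pathway, rose in STAT3ko PD-1ko T cells of both subsets, against WT and against STAT3ko alike. Sqle in CD4+ T cells stood at 38.2 and 33.4 normalized CPM in WT, 32.1 and 29.2 in STAT3ko, and 55.1 and 53.2 in STAT3ko PD-1ko libraries. The CD8+ libraries had 42.0 and 33.9 normalized CPM of Sqle in WT, 46.4 and 36.7 in STAT3ko, and 65.1 and 60.1 in STAT3ko PD-1ko libraries. In either subset both STAT3ko PD-1ko libraries lay above all 4 other libraries, while WT and STAT3ko libraries overlapped in CD8+ T cells.

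As compared with WT, Sqle rose by 0.62 on the log2 scale in STAT3ko PD-1ko CD4+ T cells (SE 0.15, adjusted p = 0.0376) and by 0.73 in CD8+ T cells (SE 0.16, adjusted p = 0.0240). It was the only 1 of 7 members called in each of these comparisons, where 12.9% and 17.2% of all genes tested were called, so that a count of 1 in 7 lies near the background. As compared with STAT3ko, Sqle rose by 0.84 in CD4+ (SE 0.15, adjusted p = 0.0192) and by 0.60 in CD8+ T cells (SE 0.16, adjusted p = 0.0444). It was again the only member called, with 11.1% and 16.8% of all genes called. The comparisons with WT and with STAT3ko share the STAT3ko PD-1ko libraries and are not independent of each other.

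Most calls of Sqle were lost when 1 library was left out, and its direction was kept. When each library was left out in turn, the log2 fold change against WT ranged from 0.52 to 0.71 in CD4+ and 0.57 to 0.88 in CD8+ T cells, and that against STAT3ko from 0.78 to 0.89 in CD4+ and 0.45 to 0.77 in CD8+ T cells. In CD4+ T cells the call against WT was lost without any 1 of the 4 libraries, at an adjusted p of 0.104 and 0.223 (without WT replicate 1 and 2) and 0.155 and 0.171 (without STAT3ko PD-1ko replicate 1 and 2). The call against STAT3ko was kept there without STAT3ko replicate 1 (adjusted p = 0.0337) and lost without STAT3ko replicate 2 (adjusted p = 0.0713) and without STAT3ko PD-1ko replicate 1 or 2 (0.0881 and 0.152). In CD8+ T cells the call against WT was kept without WT replicate 1 (adjusted p = 0.0378) and lost without WT replicate 2 (adjusted p = 0.135) and without STAT3ko PD-1ko replicate 1 or 2 (0.112 and 0.106). That against STAT3ko was kept without STAT3ko replicate 1 (adjusted p = 0.0499) and lost without STAT3ko replicate 2 (adjusted p = 0.242) and without STAT3ko PD-1ko replicate 1 or 2 (0.152 and 0.162).

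**Figure D1:**
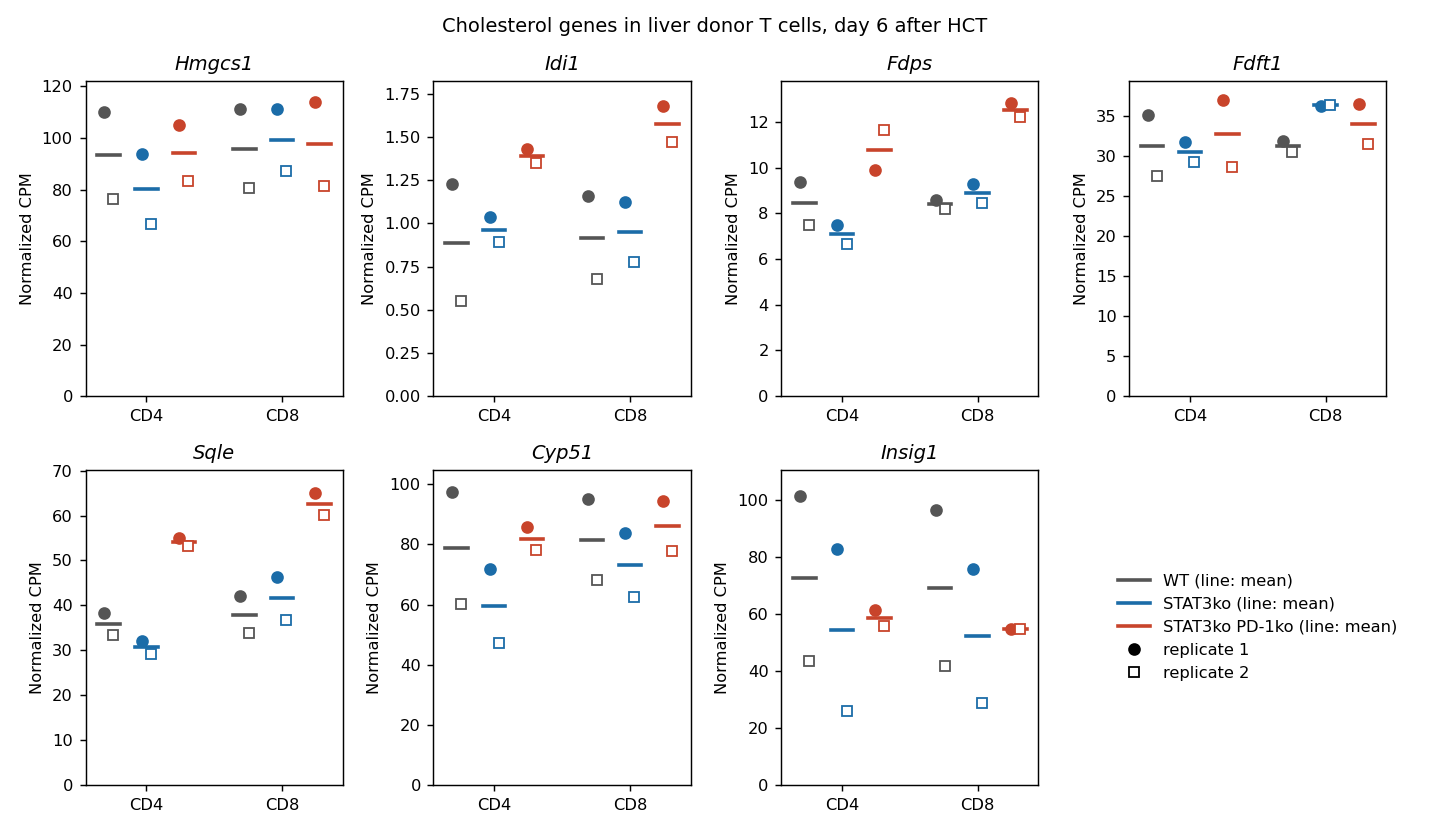
Normalized CPM (vertical axis, from 0, a separate scale for each gene) of the 7 genes in CD4+ and CD8+ T cells from WT (gray), STAT3ko (blue), and STAT3ko PD-1ko (red) donors. Filled circles are replicate 1, open squares replicate 2, and lines the mean of 2 libraries. In both subsets the STAT3ko PD-1ko libraries of Sqle, Fdps, and Idi1 sit above the other 4, and for Insig1 the replicates of WT and STAT3ko lie far apart.

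Fdps and Idi1, the last enzymes of the mevalonate arm, also had their highest values in STAT3ko PD-1ko libraries, without a call by edgeR in the fits of each subset as described above. Fdps had 9.37 and 7.49 normalized CPM in WT, 7.49 and 6.67 in STAT3ko, and 9.91 and 11.6 in STAT3ko PD-1ko CD4+ libraries. In CD8+ libraries Fdps had 8.58 and 8.19 (WT), 9.28 and 8.47 (STAT3ko), and 12.8 and 12.2 normalized CPM (STAT3ko PD-1ko). All STAT3ko PD-1ko values of Fdps thus exceeded the other values of their subset. The log2 difference of STAT3ko PD-1ko from WT was 0.38 (SE 0.22, adjusted p = 0.312) in CD4+ and 0.59 (SE 0.17, adjusted p = 0.0576) in CD8+ T cells. The log2 difference from STAT3ko was 0.63 (SE 0.22, adjusted p = 0.115) in CD4+ and 0.51 (SE 0.17, adjusted p = 0.0833) in CD8+ T cells. Fdps lay close to the threshold in CD8+ T cells against WT and passed it in 4 of 12 alternative settings, among them DESeq2 (adjusted p = 0.0408, 22.7% of all genes called) and a fit of all 12 libraries (adjusted p = 0.0498, 17.8% called). With the replicate number as a block the Fdps difference in CD8+ T cells against WT was 0.59 and was called (adjusted p = 0.0419), in a fit that called 2 of 7 members, Sqle and Fdps, and 24.7% of all genes. In the fit of all 12 libraries Fdps was also called against STAT3ko in CD4+ T cells (adjusted p = 0.0416, 18.6% called). The sequence that Fdps shares with 6 other genes, given above, applies to each of these values.

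Idi1 had 1.23 and 0.550 normalized CPM in WT, 1.04 and 0.889 in STAT3ko, and 1.43 and 1.35 in STAT3ko PD-1ko CD4+ libraries. In CD8+ libraries Idi1 had 1.16 and 0.679 (WT), 1.12 and 0.777 (STAT3ko), and 1.68 and 1.47 normalized CPM (STAT3ko PD-1ko). The groups did not overlap, but the differences from WT, 0.67 (SE 0.44) in CD4+ and 0.79 (SE 0.40) in CD8+ T cells on the log2 scale, had 95% confidence intervals of -0.35 to 1.69 and -0.15 to 1.74, which include 0. Without 1 library the Idi1 difference from WT ranged from 0.20 to 1.34 in CD4+ and from 0.44 to 1.21 in CD8+ T cells. The libraries of STAT3ko PD-1ko lay above those of WT for 3 of 7 members in CD4+ and 3 of 7 in CD8+ T cells, beside 29.6% and 30% of all genes. They lay above those of STAT3ko for 4 of 7 and 3 of 7 members, beside 28.5% and 31.6% of all genes, the fourth being Cyp51 in CD4+ T cells.

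Cyp51, which removes a methyl group from lanosterol, followed the genotype less closely. It had 97.3 and 60.3 normalized CPM in WT, 71.8 and 47.2 in STAT3ko, and 85.9 and 78.0 in STAT3ko PD-1ko CD4+ libraries. Its log2 difference between STAT3ko PD-1ko and STAT3ko was 0.48 in CD4+ (SE 0.27, adjusted p = 0.272) and 0.25 in CD8+ T cells (SE 0.21, adjusted p = 0.430), and without 1 library it ranged from 0.22 to 0.80 and from 0.055 to 0.46. Deviations of same-numbered replicates went together in the CD4+ libraries, but least so for STAT3ko with STAT3ko PD-1ko (r = 0.199, beside 0.630 for WT with STAT3ko). Cyp51 itself differed between replicate 2 and replicate 1 by -0.60 in STAT3ko and -0.14 in STAT3ko PD-1ko CD4+ libraries on the log2 scale. A block assumes 1 such shift for all groups. With the replicate number as a block the Cyp51 difference in CD4+ T cells was 0.52 and was called (adjusted p = 0.0447). That fit called 2 of 7 members, Sqle and Cyp51, and 26% of all genes. Against WT the block fit called 1 member and 26% of all genes in CD4+ T cells, and for STAT3ko against WT it called 0 members and 2.53% of all genes.

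Hmgcs1 and Fdft1, which stand early in the mevalonate arm and at the opening of the sterol arm, had no call in any genotype comparison. Hmgcs1 had 66.6 to 113.9 normalized CPM over the 12 libraries, and its group means ran from 80.2 ± 19.2 (SD, n = 2) in STAT3ko CD4+ to 99.1 ± 16.9 (SD, n = 2) in STAT3ko CD8+ T cells. For STAT3ko PD-1ko against WT its log2 difference was 0.038 (CD4+) and 0.037 (CD8+), with 95% confidence intervals of -0.51 to 0.59 and -0.48 to 0.55. Fdft1 had 27.5 to 37.0 normalized CPM over the 12 libraries, and its log2 difference for the same comparison was 0.090 (95% confidence interval -0.36 to 0.54) in CD4+ and 0.13 (-0.17 to 0.43) in CD8+ T cells. Against STAT3ko, Hmgcs1 differed by 0.25 (-0.30 to 0.80) in CD4+ and by -0.0097 (-0.52 to 0.50) in CD8+ T cells, and Fdft1 by 0.12 (-0.33 to 0.57) and -0.085 (-0.38 to 0.21). These intervals leave room for changes about as large as those of Sqle for Hmgcs1 in CD4+ T cells. Over the 7 members, the median log2 fold change between STAT3ko PD-1ko and WT was 0.090 (CD4+) and 0.13 (CD8+), and between STAT3ko PD-1ko and STAT3ko it was 0.48 and 0.25. The medians over all genes tested lay between -0.013 and -0.00062 in these 4 comparisons.

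**Figure D2:**
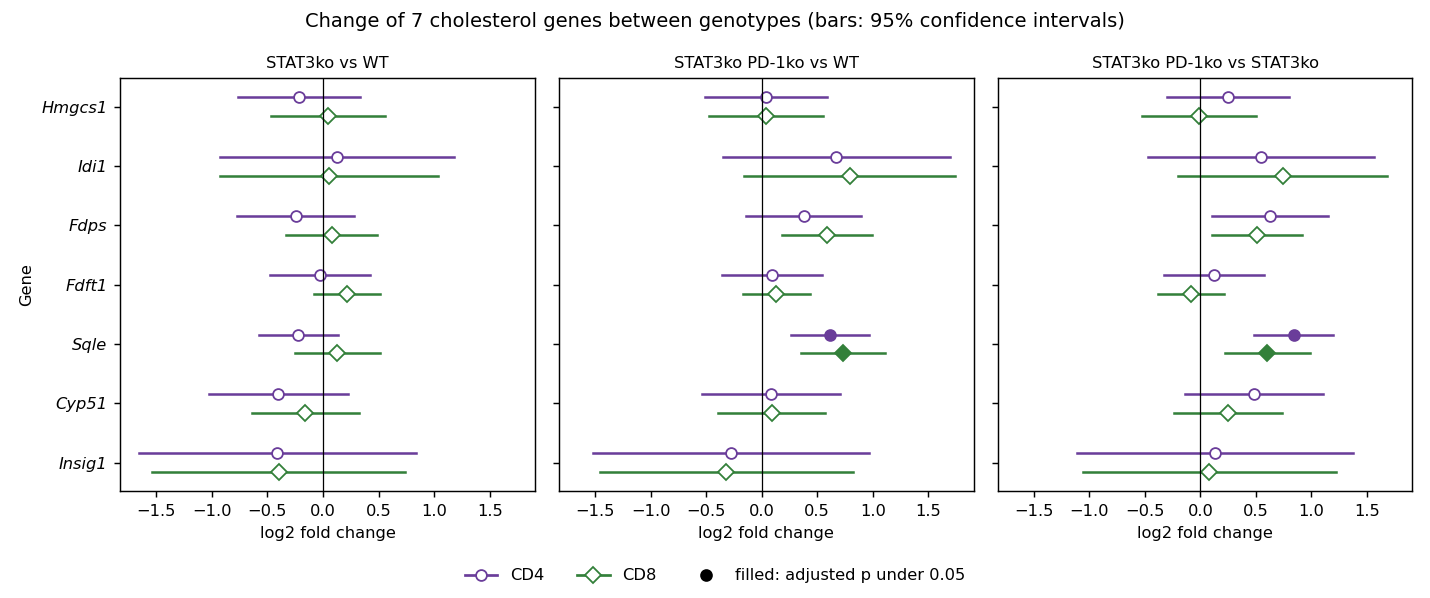
Log2 fold change (horizontal axis) of each gene (vertical axis) for the 3 genotype comparisons, in CD4+ (purple circles) and CD8+ T cells (green diamonds), from edgeR's quasi-likelihood fit of the 6 libraries of a subset. Bars are 95% confidence intervals and filled symbols mark an adjusted p under 0.05, which only Sqle reached, in both comparisons that involve STAT3ko PD-1ko. The bars of Insig1 and Idi1 are the widest.

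Insig1 separated by replicate number in WT and STAT3ko. It had 101.7 and 43.4 normalized CPM in WT CD4+ libraries (replicate 1 and 2), 83.0 and 26.1 in STAT3ko, and 61.4 and 56.0 in STAT3ko PD-1ko. In CD8+ libraries Insig1 had 96.6 and 41.7 (WT), 76.0 and 29.0 (STAT3ko), and 54.9 and 54.9 normalized CPM (STAT3ko PD-1ko). The 2 pools of WT and the 2 of STAT3ko differed by -1.67 to -1.21 on the log2 scale (replicate 2 over replicate 1), in both subsets, whereas those of STAT3ko PD-1ko differed by -0.13 (CD4+) and 0.0011 (CD8+). In STAT3ko, Insig1 was below WT within both numbers, by -0.29 and -0.74 in CD4+ and by -0.35 and -0.52 in CD8+ T cells (replicate 1 and 2). The direction of its difference between STAT3ko PD-1ko and the other genotypes, however, depended on the replicate number. Among the libraries numbered 1, Insig1 in STAT3ko PD-1ko was below WT by -0.73 (CD4+) and -0.81 (CD8+) and below STAT3ko by -0.44 and -0.47. Among those numbered 2 it was above WT by 0.37 and 0.40 and above STAT3ko by 1.10 and 0.92. With 1 library on each side these values carry no test. The fit of all 6 libraries gave a log2 fold change against WT of -0.28 (SE 0.53) in CD4+ and -0.32 (SE 0.48) in CD8+ T cells. With the replicate number as a block it was -0.11 and -0.15. Against STAT3ko it was 0.13 and 0.082, and 0.37 and 0.27 with the block. Insig1 was not called in any of these fits.

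A lower value in the library numbered 2 was shared by other members. It was found in 6 of 6 groups for Hmgcs1, Sqle, Idi1, and Cyp51, and in 5 of 6 for Fdft1, Fdps, and Insig1, while 9.68% of all genes tested were lower in all 6. The median difference over the 6 groups was -1.22 for Insig1, -0.47 for Hmgcs1, -0.45 for Cyp51, -0.34 for Idi1, -0.16 for Sqle, -0.16 for Fdft1, and -0.10 for Fdps on the log2 scale. For Sqle this difference reached at most -0.34 in any group, and the excess of STAT3ko PD-1ko over WT was found within each replicate number, at 0.52 and 0.67 in CD4+ and 0.63 and 0.82 in CD8+ T cells.

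**Figure D3:**
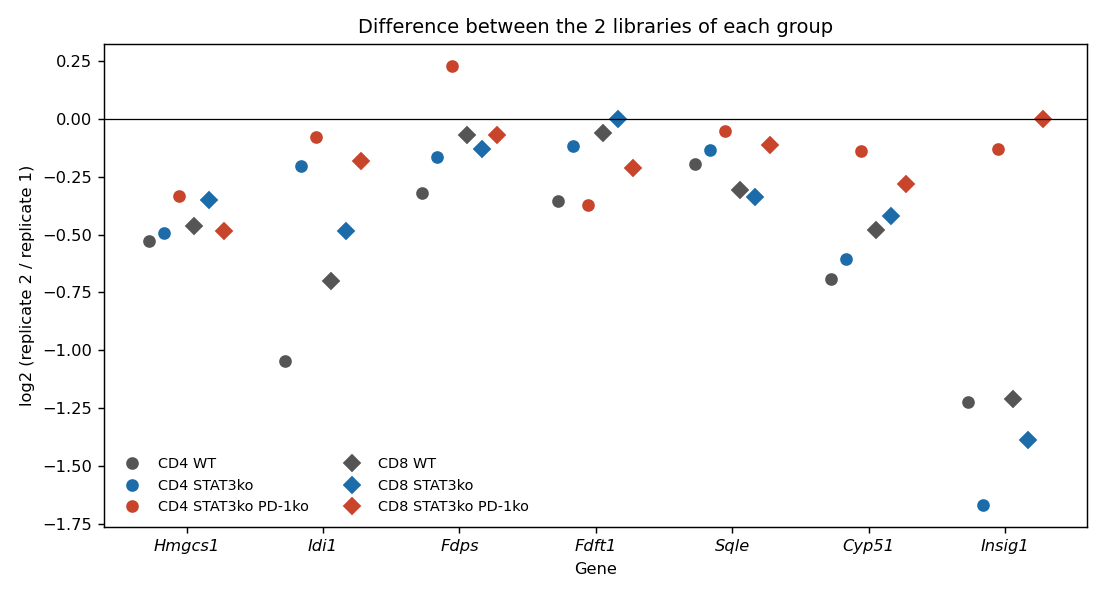
Log2 ratio of replicate 2 to replicate 1 (vertical axis) for each gene (horizontal axis) in the 6 groups, with circles for CD4+ and diamonds for CD8+ T cells and gray, blue, and red for WT, STAT3ko, and STAT3ko PD-1ko. Most points lie below 0, and Insig1 reaches -1.67 in WT and STAT3ko groups but stays near 0 in both STAT3ko PD-1ko groups.

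Correlations between members were computed across the 12 libraries after centring each gene within its subset. Sqle and Fdps correlated at r = 0.949, and Idi1 correlated with them at 0.835 and 0.802. Hmgcs1 and Cyp51 correlated at 0.892, and Insig1 with Cyp51 at 0.874 and with Hmgcs1 at 0.808. Pairs across these genes reached 0.698 (Idi1 with Cyp51), 0.635 (Cyp51 with Fdps), and 0.631 (Cyp51 with Sqle). Fdft1 was most like Hmgcs1 (0.731). The weakest of the 21 pairs was Fdft1 with Fdps (0.263), and the median was 0.575. These values describe 12 libraries that share depth, genotypes, and, as read from the replicate numbers, pools. Among the 8606 genes with a mean of at least 3 on the log2 CPM scale, those outside the lists used here whose profile was most like the mean profile of the 7 members over the 12 libraries were Prps1 (r = 0.972), Slc16a1 (0.969), Golt1b (0.966), Ltv1 (0.957), Stt3a (0.953), Eif3a (0.952), Cdkn1a (0.951), Wdr36 (0.945), Ythdf2 (0.942), and Odc1 (0.940).

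The subsets were compared within each genotype in a fit of all 12 libraries. Of the 7 members, 0 were called between CD8+ and CD4+ T cells in WT, 0 in STAT3ko, and 0 in STAT3ko PD-1ko, while 10.5%, 9.62%, and 4.14% of all genes were called. DESeq2, which called 12.3%, 11.7%, and 6.15% of all genes, called 0 of 7 in each. The member count at an unadjusted p under 0.05 was 0, 1, and 0, beside 2720, 2710, and 1815 of 12334 genes. In WT the log2 differences of the members lay between -0.071 (Insig1) and 0.083 (Sqle). In STAT3ko they ran from -0.055 (Insig1) to 0.44 (Sqle), and the CD8+ libraries of Sqle, Fdps, and Fdft1, 3 of 7 members, lay above both CD4+ libraries, beside 24.9% of all genes. CD4+ and CD8+ libraries of the same genotype and number deviated together across genes. They were read as 1 pool for that reason, though no text ties them by number. With the pool as a block, 3 members were higher in CD8+ than in CD4+ STAT3ko T cells, Sqle by 0.43 (adjusted p = 0.0112), Hmgcs1 by 0.32 (adjusted p = 0.0280), and Cyp51 by 0.31 (adjusted p = 0.0433), where that fit called 24.9% of all genes. It called 0 members in WT and 0 in STAT3ko PD-1ko, beside 24.3% and 14.4% of all genes. In STAT3ko PD-1ko the CD8+ libraries of Sqle, Fdps, and Idi1 lay above and those of Insig1 below the CD4+ libraries, separations found for 24.6% and 21.9% of all genes.

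An interaction term asked whether a member responded to genotype differently in CD4+ and CD8+ T cells. No member passed for STAT3ko against WT, for STAT3ko PD-1ko against WT, or for STAT3ko PD-1ko against STAT3ko, where 0%, 0.00811%, and 0% of all genes were called. The member count was 0 in each at an unadjusted p under 0.05, beside 228, 547, and 443 of 12334 genes. It was also 0 by DESeq2, which called 0.0405%, 0.608%, and 0.17% of all genes. For Sqle the CD8+ effect minus the CD4+ effect was 0.36 for STAT3ko against WT (95% confidence interval -0.13 to 0.85), 0.13 for STAT3ko PD-1ko against WT (-0.36 to 0.61), and -0.23 for STAT3ko PD-1ko against STAT3ko (-0.72 to 0.26). These intervals leave room for differences of the size of the genotype effects themselves.

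The synthesis pathway beyond the 6 member enzymes was read from a list of 19 enzymes, members included, all of which were tested. Against WT, edgeR called 1 of 19 higher in STAT3ko PD-1ko CD4+ T cells (Sqle) and 2 of 19 in CD8+ T cells (Sqle and Lss), with 0 lower, beside 7.21% and 9.01% of all genes called higher. Against STAT3ko the counts were again 1 and 2 higher and 0 lower, of the same enzymes, beside 6.05% and 8.76%. The median log2 fold change of the 19 against WT was 0.090 for CD4+ and 0.13 for CD8+ libraries. For STAT3ko against WT, 0 of 19 were called by edgeR and 0 by DESeq2 in either subset, with medians of -0.16 and 0.078. At an unadjusted p under 0.05 there were 0 of 19 in CD4+ and 1 of 19 in CD8+ T cells, beside 1259 of 11959 and 1315 of 12002 genes.

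Lss, lanosterol synthase, acts directly after squalene epoxidase. It rose in STAT3ko PD-1ko CD8+ T cells by 0.49 against WT (SE 0.13, adjusted p = 0.0476) and by 0.63 against STAT3ko (SE 0.14, adjusted p = 0.0241). Its CD4+ differences were 0.15 (SE 0.18, adjusted p = 0.636) and 0.36 (SE 0.18, adjusted p = 0.235).

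Of 12 genes of SREBP regulation, Insig1 among them, only Erlin1 was called by edgeR in the comparisons with STAT3ko PD-1ko, in 4 of 4. The edgeR count of 1 in 12 does not exceed the background of 12.9% and 17.2% of all genes called against WT, and 11.1% and 16.8% against STAT3ko. DESeq2 called 2 of 12 in both CD8+ comparisons, where it called 22.7% of all genes against WT and edgeR called 16.8% against STAT3ko. Erlin1, which codes for a membrane protein that holds SREBP back in the endoplasmic reticulum, had 14.2 ± 0.805 normalized CPM in WT and 35.5 ± 2.62 in STAT3ko PD-1ko CD4+ T cells (SD, n = 2 in each). It rose against WT by 1.35 in CD4+ (SE 0.19, adjusted p = 0.00783) and 0.99 in CD8+ T cells (SE 0.14, adjusted p = 0.00825), and against STAT3ko by 1.06 (SE 0.19, adjusted p = 0.0192) and 0.95 (SE 0.14, adjusted p = 0.0096). Srebf2, the transcription factor gene itself, had 234.6 to 352.3 normalized CPM and was not called, nor was Srebf1, at 74.4 to 117.5.

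Of 14 genes listed for cholesterol uptake and intracellular transport, 11 were tested. Against WT, 1 was called higher and 1 lower in STAT3ko PD-1ko CD4+ T cells and 2 higher and 2 lower in CD8+ T cells, beside 12.9% and 17.2% of all genes called in either direction. Against STAT3ko, 2 were called higher and 0 lower in CD4+ and 3 higher and 1 lower in CD8+ T cells, beside 11.1% and 16.8%. Scarb1, the receptor that exchanges cholesterol with HDL, rose in STAT3ko PD-1ko against STAT3ko by 1.98 in CD4+ (SE 0.26, adjusted p = 0.00884) and 1.34 in CD8+ T cells (SE 0.20, adjusted p = 0.00893). Tmem97, a partner of the lysosomal cholesterol transporter NPC1, rose by 1.29 (SE 0.32, adjusted p = 0.0450) and 0.79 (SE 0.17, adjusted p = 0.0238). The lipoprotein receptor gene Lrp8 also rose in CD8+ T cells against STAT3ko (0.82, SE 0.17, adjusted p = 0.0237), and Npc2, which codes for the soluble partner of NPC1, fell (-0.60, SE 0.11, adjusted p = 0.0153). Gramd1a, a sterol carrier between membranes, fell against WT in both subsets, by 0.71 in CD4+ (SE 0.16, adjusted p = 0.0306) and by 0.53 in CD8+ T cells (SE 0.13, adjusted p = 0.0300).

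Genes of cholesterol efflux and of the sterol-sensing LXR receptors, read as 1 list, were called by edgeR only in CD8+ T cells. There Abcg1, a cholesterol exporter, fell against STAT3ko by 0.64 (SE 0.13, adjusted p = 0.0232) and Nr1h2, which codes for LXRβ, by 0.65 (SE 0.11, adjusted p = 0.0125), and both also fell against WT. These were 2 of the 7 efflux and LXR genes tested in CD8+ T cells in each comparison, beside 17.2% (against WT) and 16.8% of all genes (against STAT3ko). By edgeR 0 of 8 were called in CD4+ T cells, beside 12.9% and 11.1%, so that these counts lie near the background. In CD4+ T cells DESeq2 called 2 of 8 against STAT3ko, where it called 2100 of 11959 genes tested. Against WT it called 1 of 8, where edgeR called 12.9% of all genes. Whether this differed between the subsets was not tested for the list. Of the 8 genes of esterification and oxysterol formation 3 were tested. Of these, edgeR called 0 in any of the 6 genotype comparisons, beside 0.0583% to 17.2% of all genes. In each, 1 of 3 had an unadjusted p under 0.05, as did 1259 to 3512 of 11959 genes in CD4+ and 1315 to 4128 of 12002 in CD8+ T cells. DESeq2 called 1 of 3 in STAT3ko PD-1ko against STAT3ko in CD4+ T cells, where it called 2100 of 11959 genes. It also called 1 of 3 against WT in CD8+ T cells, beside 22.7% of all genes.

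Several other measures differed between genotypes, only in part between the same groups as Sqle. The summed level of 14 proliferation genes was 4219 and 3285 normalized CPM in WT, 4918 and 4346 in STAT3ko, and 6774 and 6251 in STAT3ko PD-1ko CD4+ libraries, with Mki67 the most abundant. In CD8+ libraries it was 5815 and 4882 (WT), 7605 and 6958 (STAT3ko), and 7692 and 7069 normalized CPM (STAT3ko PD-1ko). For STAT3ko against WT, where Sqle was not called, 14 of 14 lay above 0 in both subsets. There edgeR called 0 of 14, beside 0.334% (CD4+) and 0.0583% of all genes (CD8+). DESeq2 called 0 of 14 in CD4+ and 3 of 14 in CD8+ T cells, beside 2.27% and 1.82% of all genes. Against WT 12 of these 14 genes rose in CD4+ and 7 of 14 in STAT3ko PD-1ko CD8+ T cells, beside 7.21% and 9.01% of all genes called higher. Against STAT3ko 6 of 14 rose in CD4+ T cells, beside 6.05%, and 0 of 14 in CD8+ T cells, beside 8.76%, where Sqle rose. In that CD8+ comparison 1 of 14 had an unadjusted p under 0.05, as did 4128 of 12002 genes, and DESeq2 called 0. The part of proliferation in the change of Sqle was not tested.

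Markers of other liver and blood cells were low throughout. The 15 hepatocyte markers summed to 0.989 to 4.21 normalized CPM per library, with Apoa2 the most abundant at 0.283 to 1.35, while Sqle alone stood at 29.2 or more in every library. The highest sum was that of CD4+ STAT3ko PD-1ko replicate 2. Of the 3 hepatocyte markers tested, 3 lay above 0 in STAT3ko PD-1ko against WT in CD4+ T cells (median log2 difference 0.78) and 2 in CD8+ T cells (median 0.033), and against STAT3ko 2 (median 0.31) and 3 (median 0.46), the same direction as Sqle, with 0 called. The hepatocyte is known for a high rate of cholesterol synthesis. The 11 macrophage and Kupffer cell markers summed to 7.49 to 20.7 normalized CPM in CD4+ libraries and 17.9 to 40.3 in CD8+ libraries. Most of this was Cd68, which fell in STAT3ko PD-1ko CD8+ T cells against WT (-0.71, adjusted p = 0.0154), the opposite direction to Sqle. Against WT, 8 of the 9 macrophage and Kupffer markers tested in CD4+ and 9 of 9 in CD8+ T cells lay below 0, with medians of -2.11 and -2.41 on the log2 scale, and Cd68 was the only 1 called. The 6 B cell markers summed to 1.67 to 14.7 normalized CPM, almost all of it Cd79b, with Ms4a1 at 0 counts in all 12 libraries. Cd79b also fell in STAT3ko PD-1ko CD8+ T cells, by 1.18 against WT (adjusted p = 0.0149) and by 1.23 against STAT3ko (adjusted p = 0.0143). The 6 endothelial markers summed to 0.424 to 6.29, mostly Egfl7, which rose in STAT3ko PD-1ko T cells of both subsets against WT (2.35 in CD4+ and 2.37 in CD8+, adjusted p = 0.0206 and 0.00651). In CD4+ T cells 1 endothelial marker was tested. In CD8+ T cells 3 were tested, and besides Egfl7 the other 2 lay below 0 against WT (median of the 3 -0.36) and against STAT3ko (median -1.02). The neutrophil markers summed to at most 1.02, with Elane at 0, and the erythroid markers to at most 0.563 normalized CPM, with the 4 hemoglobin genes at 0. S100a8 (at most 0.559) and Alas2 (at most 0.563) were the most abundant of these last lists. The part of these cells in the change of Sqle was not tested beyond these levels. In sorted populations such as these, fewer cells of a type and less RNA per cell cannot be told apart.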

How the data were processed

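Per the supplemental methods of the study, 51-base single-end reads were aligned to mm10 with STAR v2.7 and counted on RefSeq genes with HTSeq-count v0.11. The authors deposited raw counts, used here for all tests, and RPKM values, which divide counts by exon length and library size and were used in an alternative. The labels also carry protocols for a cell line, which were not used. The 2 libraries of a group were never merged.

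Counts were filtered with filterByExpr (minimum count 10, minimum total 15), scaled by TMM, and tested with edgeR 4.0.16 (glmQLFit, glmQLFTest) in R 4.3.3, fitting the 6 libraries of each subset together (3 residual degrees of freedom; 11959 genes in CD4+ and 12002 in CD8+ T cells) or all 12 in 1 fit for subset differences and interactions (6 degrees; 12334 genes). P-values were adjusted by Benjamini-Hochberg over all genes tested. An exact permutation test of 2 libraries against 2 cannot go below p = 0.333 (two-sided), and none is given. Alternatives were DESeq2 1.42.0, RLE size factors, every gene with at least 1 count, a minimum of 10 counts per library, the 4 compared libraries alone, all 12 libraries in 1 fit, a replicate block, limma 3.58.1 on log2(RPKM + 1), and leaving out each library. The fits were tested on simulated counts.

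Deviations of same-numbered libraries from their group means correlated across genes at 0.199 to 0.630 in the 3 pairs of CD4+ groups, 0.0601 to 0.651 in CD8+, and 0.583 to 0.646 between CD4+ and CD8+ libraries of a genotype. The numbers, taken from the sample titles, were therefore read as pairing the CD4+ libraries and the pools. No text ties the CD4+ and CD8+ library of a number to 1 pool, so the pools are inferred from these correlations. The CD8+ libraries were treated in the same way, although their pair of STAT3ko with STAT3ko PD-1ko correlated at only 0.0601.

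Named are the 7 members, Stat3, Pdcd1, Srebf1, Srebf2, listed genes called in a genotype comparison, the 10 most similar genes, and each marker list's most abundant gene and genes at 0. Cd4 and Cd8a were added to check the sort. Some genes that the rule names are not reported here and were left out of the list counts. The members and lists were chosen with earlier results of these data known. Transcripts were compared with blastn 2.17.0, and figures drawn with matplotlib 3.10.9.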

Additional observations from a re-analysis of the deposited data

How the results depend on the processing

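Each group has 2 pools, the fits have 3 residual degrees of freedom, and on simulated counts for STAT3ko PD-1ko against WT in CD4+ T cells 33 of 96 genes changed by 1 on the log2 scale and 97 of 99 changed by 2 were recovered, with 15 false calls among 11774 genes, and in CD8+ T cells 46 of 97 and 82 of 96, with 15 among 11848, so that a member without a call may still have changed. In the simulation far fewer genes were changed than were called in the data, and no replicate effect shared between libraries was drawn. Its recovery and false-call counts therefore need not hold for the fits above. Of the alternative values of members, 847 kept direction and side of the threshold, 9 gained a call, 14 lost it, and 96, none of them called, had the other sign. Sqle kept its sign in 12 of 12 settings in each comparison with STAT3ko PD-1ko and was called in 8 (CD4+, against WT), 9 (CD4+, against STAT3ko), 9 (CD8+, against WT), and 8 of them (CD8+, against STAT3ko). Besides the left-out libraries, its call was lost with limma on log2(RPKM + 1) in CD8+ T cells against STAT3ko (0.59, adjusted p = 0.0550). Where a left-out library leaves 1 sample in a group, that sample was assumed to vary like the other groups. The causes of the shifts below were not tested.

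For STAT3ko against WT in CD4+ T cells, the count of 40 called genes was 271 with DESeq2, 165 with every gene of at least 1 count, 1 with only the 4 libraries, 303 with the replicate block, and 164 with all 12 libraries in 1 fit. In CD8+ T cells the count of 7 was 218 with DESeq2, 66 with every gene, 1 with at least 10 counts per library, 0 with only the 4 libraries, and 20 with all 12. In CD4+ T cells, STAT3ko PD-1ko against WT gave 1538 genes, 3104 with the replicate block, and 2462 with all 12 libraries, and against STAT3ko 1324 genes, 2100 with DESeq2, 3105 with the block, and 2299 with all 12. The member count rose from 1 to 2 against STAT3ko in CD4+ T cells with the block (Sqle and Cyp51) and with all 12 libraries (Sqle and Fdps), and against WT in CD8+ T cells with DESeq2, the replicate block, and all 12 libraries (Sqle and Fdps in each). Against WT in CD8+ T cells Fdps was 0.53 with limma on log2(RPKM + 1) (adjusted p = 0.0418). Among members the replicate block within a subset changed no call other than those of Cyp51 and Fdps. For the difference between subsets in STAT3ko against WT, DESeq2 called 5 genes, beside 0. In STAT3ko PD-1ko against WT it called 75, every gene gave 50, and the block by pool 84, beside 1. In STAT3ko PD-1ko against STAT3ko these were 21, 9, and 22, beside 0. Between CD8+ and CD4+ T cells the block by pool called 2991 (WT, 1294 without it), 3077 (STAT3ko, 1187), and 1774 genes (STAT3ko PD-1ko, 511), and 3 members in STAT3ko.

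Leaving out each library in turn gave 9 to 49 called genes for STAT3ko against WT in CD4+ and 0 to 2 in CD8+ T cells. Against WT, STAT3ko PD-1ko gave 62 to 676 genes (0 to 0 members) in CD4+ and 111 to 1107 (0 to 1 members) in CD8+ T cells. Against STAT3ko it gave 0 to 1185 (0 to 1 members) and 2 to 1194 genes (0 to 1 members). The subsets differed in 611 to 819 (WT), 428 to 775 (STAT3ko), and 163 to 200 genes (STAT3ko PD-1ko), and the interactions gave 0 to 0, 1 to 1, and 0 to 0 genes.

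Uncalled values crossed 0 in a few fits with all libraries. With at least 10 counts per library, Hmgcs1 in STAT3ko PD-1ko against STAT3ko CD8+ T cells was 0.00077. With the block by pool, the difference between subsets in STAT3ko PD-1ko against WT was -0.0028 for Cyp51 and -0.0024 for Hmgcs1, CD8+ against CD4+ was 0.0049 for Fdft1 in WT, and 0.0041 for Insig1 in STAT3ko.

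Without 1 library, these uncalled log2 differences also crossed 0. For STAT3ko against WT in CD4+ T cells, they ranged from -0.20 to 0.15 for Fdft1, -0.47 to 0.065 for Hmgcs1, -0.35 to 0.79 for Idi1, and -1.46 to 0.32 for Insig1. For STAT3ko PD-1ko against WT in CD4+ T cells, they ranged from -0.23 to 0.45 for Cyp51, -0.098 to 0.27 for Fdft1, -0.20 to 0.31 for Hmgcs1, and -0.77 to 0.44 for Insig1. Against STAT3ko, the CD4+ ranges were -0.069 to 0.28 for Fdft1 and -0.47 to 1.18 for Insig1. In CD8+ T cells, STAT3ko against WT ranged from -0.38 to 0.095 for Cyp51, -0.17 to 0.29 for Hmgcs1, -0.29 to 0.47 for Idi1, -1.25 to 0.32 for Insig1, and -0.041 to 0.28 for Sqle. STAT3ko PD-1ko against WT in CD8+ T cells ranged from -0.14 to 0.34 for Cyp51, -0.24 to 0.28 for Hmgcs1, and -0.82 to 0.40 for Insig1. STAT3ko PD-1ko against STAT3ko in CD8+ T cells ranged from -0.21 to 0.0068 for Fdft1, -0.28 to 0.20 for Hmgcs1, and -0.45 to 0.92 for Insig1. The interaction for STAT3ko against WT ranged from -0.14 to 0.57 for Cyp51, -0.027 to 0.52 for Hmgcs1, -0.75 to 0.41 for Idi1, and -0.83 to 1.06 for Insig1. That for STAT3ko PD-1ko against WT ranged from -0.37 to 0.34 for Cyp51, -0.13 to 0.24 for Fdft1, -0.27 to 0.27 for Hmgcs1, -0.55 to 0.62 for Idi1, -0.76 to 0.71 for Insig1, and -0.00032 to 0.29 for Sqle. That for STAT3ko PD-1ko against STAT3ko ranged from -0.54 to 0.049 for Cyp51, -0.22 to 0.026 for Fdps, -0.023 to 0.48 for Idi1, and -1.08 to 0.82 for Insig1. CD8+ against CD4+ WT T cells ranged from -0.26 to 0.44 for Cyp51, -0.18 to 0.19 for Fdft1, -0.17 to 0.17 for Fdps, -0.21 to 0.33 for Hmgcs1, -0.43 to 0.73 for Idi1, -0.80 to 0.67 for Insig1, and -0.075 to 0.21 for Sqle. CD8+ against CD4+ STAT3ko T cells ranged from -0.30 to 0.21 for Idi1 and -0.91 to 0.99 for Insig1. CD8+ against CD4+ STAT3ko PD-1ko T cells ranged from -0.063 to 0.20 for Cyp51, -0.11 to 0.24 for Fdft1, and -0.20 to 0.27 for Hmgcs1.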

Other observations

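Other lipid genes, which belong to none of the comparisons above, moved with the STAT3ko PD-1ko genotype in both directions. Scd2, a desaturase that makes monounsaturated fatty acids, rose against WT by 1.35 in CD4+ (SE 0.26, adjusted p = 0.0186 by edgeR) and by 1.34 in CD8+ T cells (SE 0.15, adjusted p = 0.00414). Acss2, which makes acetyl-CoA from acetate in the cytosol and is known as an SREBP target, fell against STAT3ko by 1.15 in CD4+ (SE 0.16, adjusted p = 0.00919) and by 1.38 in CD8+ T cells (SE 0.13, adjusted p = 0.00292), the opposite direction to Sqle. Of the 11 fatty acid genes tested, 4 rose and 1 fell in CD8+ T cells against WT, beside 17.2% of all genes called, and 1 rose and 1 fell in CD4+ T cells, beside 12.9%. In CD8+ T cells against WT, Fasn, fatty acid synthase, rose by 0.61 (adjusted p = 0.0135), Acaca, acetyl-CoA carboxylase, by 0.71 (adjusted p = 0.0127), and the elongase gene Elovl6 by 0.65 (adjusted p = 0.036). Against STAT3ko, 2 of 11 rose and 1 fell in CD4+ T cells, beside 11.1% of all genes called, and 4 of 11 rose and 1 fell in CD8+ T cells, beside 16.8%. The genes that rose were Elovl6 (1.13, adjusted p = 0.0318) and Scd1 (2.23, adjusted p = 0.0495) in CD4+ T cells. In CD8+ T cells they were Acaca, Elovl6, Fasn, and Scd2.

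Among 12 genes of the isoprenoid branches, which use the product of Fdps, edgeR called 0 in STAT3ko PD-1ko CD4+ T cells, beside 12.9% (against WT) and 11.1% of all genes (against STAT3ko). At an unadjusted p under 0.05 there were 2 of 12 against WT and 2 of 12 against STAT3ko, beside 3438 and 3512 of 11959 genes. DESeq2 called 0 against WT, and 1 against STAT3ko, where it called 2100 of 11959 genes. In CD8+ T cells edgeR called 3 of 12 against WT and 2 of 12 against STAT3ko, beside 17.2% and 16.8%. Against WT, Coq2 of ubiquinone synthesis rose by 0.66 (adjusted p = 0.024), Dhdds of dolichol synthesis rose by 0.52 (adjusted p = 0.0253), and Rabggta, a subunit of Rab geranylgeranyl transferase, fell by 0.74 (adjusted p = 0.0121). Against STAT3ko, Pdss1, also of ubiquinone synthesis, rose by 0.65 (adjusted p = 0.0244), and Rabggta fell by 0.54. Of the 9 T cell markers, Cd8a (-1.09, adjusted p = 0.00414), Cd8b1 (-0.87, adjusted p = 0.00531), Cd3d (-0.67, adjusted p = 0.0169), and Lck (-0.46, adjusted p = 0.021) fell in STAT3ko PD-1ko CD8+ T cells against WT, and Cd4 (-0.52, adjusted p = 0.0375) fell in CD4+ T cells, which makes 4 of 9 and 1 of 9 markers called, beside 17.2% and 12.9% of all genes.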
